A study of Mus musculus with 33 samples.

Results

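The genes described here encode the proteins of the cytosolic ribosome. They are the rows of the count table whose symbol is Rpl or Rps with a number, or Rpsa, Rplp0, Rplp1 or Rplp2, without pseudogene symbols and without the Rps6k kinases. Of 21950 genes counted, 86 matched, and 83 of these had a mean CPM, the count scaled to a fixed library total, of at least 5 over the 33 libraries. Beyond their symbols they were chosen by this mean level, taken over all libraries without regard to group. The ribosomal protein genes were taken up as a set with earlier results of these data known. The counts of genes called below may therefore not be independent of those results. The 3 left out were Rpl3l at 0.495 CPM, Rpl39l at 0.281 CPM and Rpl10l at 0 CPM, and the first inside were Rpl5 at 5.40 CPM and Rps19bp1 at 7.12 CPM. Rps19bp1 encodes a partner of Rps19 that is not itself a ribosomal protein, so the symbol rule takes in 1 gene of another kind.

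The cells were sorted from brains of mice in which a model named Cortical MS had been induced, and all 6 groups carried that induction. Blood-derived phagocytes were the CD45-high CD11b-high CCR2+ cells, activated microglia the CD45-high CD11b-high CCR2- cells and resting microglia the CD45-int CD11b-int cells. Each population had 6 libraries from mice given a CSF1R inhibitor and 5 from mice given vehicle. CSF1R is the receptor on which microglia depend for survival. The labels used here gave no strain, age, sex or inhibitor dose, and did not say whether a sample pooled animals, so p-values measure the spread between these samples. RNA from sorts of very different cell number was copied with a kit for very small inputs and amplified in 11 or 17 cycles, and the cycle number of each library was not given.

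A ribosome has a small subunit that reads the messenger and a large subunit that joins amino acids, and each subunit holds 1 copy of nearly every protein. Cells make these proteins in step, and much of that coordination is exerted on translation: most of the messengers begin with a cytosine and a run of pyrimidines, the terminal oligopyrimidine (TOP) tract, through which mTOR signalling sets how actively they are translated. Message levels, which are what was measured here, therefore say only how much template was present.

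The sequence at the start of the genes was not used in choosing them, and part of the set holds the pyrimidine start. RefSeq promoter windows (GRCm38.p6) were found for 63 of the 83 genes. The lines below give 30 bases before and 20 bases from the annotated first base, 5′ to 3′ on the gene's own strand, with capitals marking the first 5 transcribed bases. The first 4 genes begin with C and 4 pyrimidines, and the last 3 do not. In the Rpl22l1 line, however, such a run begins a few bases after the annotated first base. Rpl9 was among the genes with the smallest p-values below, and Rpl7l1 and Rpl22l1 were among the few that did not follow the others. The printed lines are picked examples and cannot show whether the start bears on a gene's level.
Rps6, chr4:86857348-86857397, minus strand: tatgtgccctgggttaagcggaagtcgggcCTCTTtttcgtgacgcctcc
Rplp2, chr7:141447621-141447670, plus strand: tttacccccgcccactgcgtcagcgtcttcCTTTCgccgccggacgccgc
Rpl38, chr11:114668550-114668599, plus strand: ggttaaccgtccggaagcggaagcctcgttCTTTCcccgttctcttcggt
Rps18, chr17:33955646-33955695, minus strand: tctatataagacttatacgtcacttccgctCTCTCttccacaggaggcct
Rpl9, chr5:65391412-65391461, minus strand: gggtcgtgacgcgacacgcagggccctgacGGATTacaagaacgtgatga
Rpl7l1, chr17:46782637-46782686, minus strand: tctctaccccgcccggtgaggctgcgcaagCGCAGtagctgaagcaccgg
Rpl22l1, chr3:28805478-28805527, plus strand: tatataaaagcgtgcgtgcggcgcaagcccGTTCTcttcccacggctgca

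A pyrimidine start of this kind, C followed by 4 bases that are each C or T, stood at the annotated first base of 14 of the 63 genes, or 22.2%, against 3.01% of the 27025 genes with a window. Allowing the start to lie up to 5 bases to either side gave 47.6% of the 63 genes, against 21.2% of all genes. The word CCGGAAG, searched on both strands over the whole 300-base window, was in 39.7% of the 63 genes, against 9.93% of all. The TATA word TATAAA was in 9.52% of them, against 9.77% of all. Some genes have several annotated starts, and a gene was counted if any of them matched, in the set and over all genes alike. These are matches of letters around annotated starts, and a start annotated a few bases away would hide a tract.

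The libraries held 11789803 to 22146705 counts and 9742 to 14861 genes with at least 1 count. All 83 genes had at least 1 count in every library but 1, an activated microglia library with inhibitor in which 82 did. 3 libraries, all of activated microglia, had fewer than 11000 detected genes: inhibitor replicates 1 and 2 and vehicle replicate 2. The marker genes bore out the sort in part. Summed over 10 microglial markers, resting microglia held 3.23% to 4.59% of counts with inhibitor and 3.16% to 4.21% with vehicle, while blood-derived phagocytes held 0.648% to 0.814%. The libraries labelled activated microglia held less of those markers, 0.128% to 0.714%, and more of 11 neutrophil markers, 2.02% to 14.2% of counts, against 0.0401% to 0.0644% for blood-derived phagocytes. Resting microglia held 0.0821% to 0.106% of neutrophil markers. Summed over 6 monocyte markers, activated libraries held 0.140% to 0.403% of counts and blood-derived phagocytes 0.156% to 0.680%, against 0.00109% to 0.00818% in resting microglia. Summed over 8 natural killer cell markers, activated libraries held 0.0368% to 1.63% and blood-derived phagocytes 0.000773% to 0.0215%, while no resting library exceeded 0.000467%. No neutrophil, microglial or monocyte marker was at 0 in any group. These marker levels move with the ribosomal protein differences below, and their part in them was not tested. In bulk libraries fewer cells of a type and less RNA per cell cannot be told apart.

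Among the 83 genes, level per length spanned a wide range. On the authors' log2 FPKM scale, which corrects for transcript length, Rpl13 had a mean of 9.34 over all libraries and Rps9 one of 9.03, both near the top, while Rpl27 had 4.51 and Rps12 4.01. The middle of the list lay at a median log2 FPKM of 8.19 with inhibitor and 8.12 with vehicle for blood-derived phagocytes, 7.57 and 7.70 for activated microglia, and 6.80 and 6.83 for resting microglia, inhibitor first in each pair. The order of the genes hardly moved between groups: Spearman's rho between any pair of groups, over the 83 genes, was 0.957 to 0.997, a description in which every group shares the same transcript lengths.

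Summed over the 83 genes, the ribosomal protein share of a library was highest in blood-derived phagocytes and lowest in resting microglia. With vehicle, the share was 2.13%, 1.81%, 2.21%, 2.13% and 2.16% of counts in the 5 libraries of blood-derived phagocytes. It was 1.60%, 2.30%, 1.80%, 1.11% and 1.54% in activated microglia, and 0.862%, 1.13%, 0.884%, 1.03% and 1.22% in resting microglia. Every blood-derived library stood above every resting library, while activated microglia overlapped both. With inhibitor, the lowest, median and highest shares were 2.09%, 2.30% and 2.40% in blood-derived phagocytes, 0.935%, 1.37% and 2.41% in activated microglia, and 0.844%, 0.937% and 1.05% in resting microglia. The ratio of group means was 2.03 for blood-derived phagocytes over resting microglia with vehicle and 2.39 with inhibitor. It was 1.62 and 1.61 for activated over resting microglia.

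**Figure D1:**
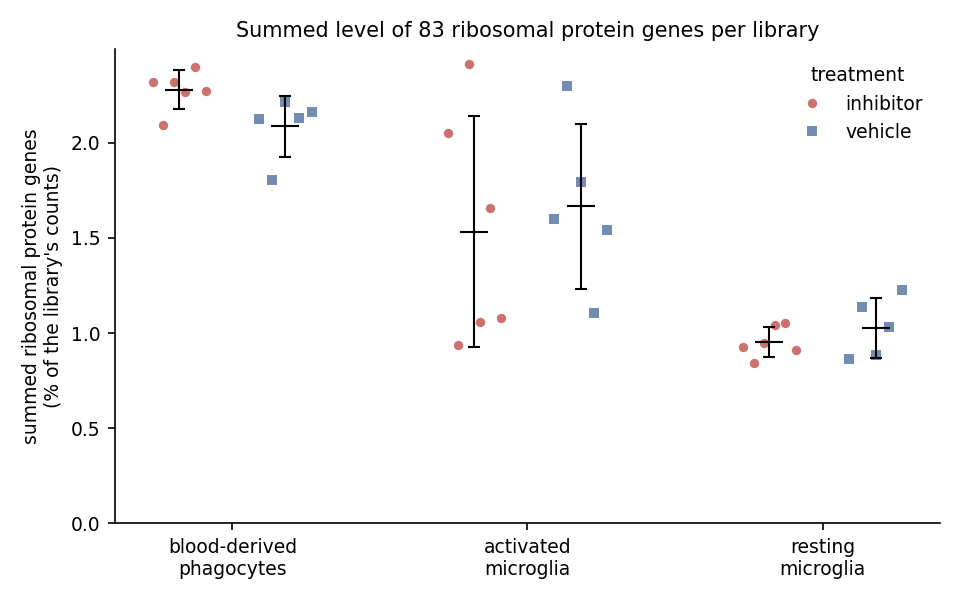
Summed counts of the 83 ribosomal protein genes as a percent of each library's counts (vertical axis) for 3 populations; points are libraries, red circles inhibitor (n = 6) and blue squares vehicle (n = 5), with black bars for mean ± SD. Blood-derived phagocytes sit between 1.81% and 2.40%, resting microglia between 0.844% and 1.22%, and activated microglia spread from 0.935% to 2.41%.

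The question for single genes was whether each rose with the rest when cells of the CD45-high CD11b-high gates were set against resting microglia. In blood-derived phagocytes against resting microglia with vehicle, 78 of the 83 genes rose and 0 fell at an adjusted p under 0.05 (edgeR's quasi-likelihood test, with the Benjamini-Hochberg method applied across the 12059 genes that passed the count filter). Of all genes tested, 30.9% were higher and 31.6% lower in that comparison. The median log2 fold change of the 83 genes was 1.17, against -0.04 over all genes. With inhibitor, 80 rose and 0 fell, with a median of 1.35, where 31.2% of all genes were higher and 32.2% lower. The 2 arms share no library, and 77 genes rose in both.

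Activated microglia against resting microglia gave 70 higher and 0 lower with vehicle, with a median log2 fold change of 0.83. Of all genes, 18.2% were higher and 10.7% lower. With inhibitor 70 rose and 0 fell, with a median of 0.89, where 22.1% of all genes were higher and 11.2% lower, and 67 genes rose in both arms. Under another scaling, edgeR's RLE factors, the median of all genes in the inhibitor arm moved from -0.01 to -0.20 and that of the ribosomal protein genes to 0.70. In that arm RLE called 2203 genes of all tested higher and 1715 lower, against 2658 and 1349 with TMM, and 59 ribosomal protein genes stayed higher with 0 lower.

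Between the gates the difference was smaller. Blood-derived phagocytes exceeded activated microglia in 16 of the 83 genes with vehicle and 33 with inhibitor, and 0 were lower in either arm, with median log2 fold changes of 0.26 and 0.47. The shares of all genes that were higher and lower were 6.48% and 12.3% with vehicle, and 6.23% and 14% with inhibitor. 11 genes were called in both arms. The vehicle count moved most with activated vehicle replicate 2, a library with few detected genes: without it 38 genes were called. Leaving out blood-derived vehicle replicate 1, 3 or 5 gave 10. With inhibitor, leaving out blood-derived replicate 3 gave 21 and leaving out replicate 4 or 5 gave 20.

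**Figure D2:**
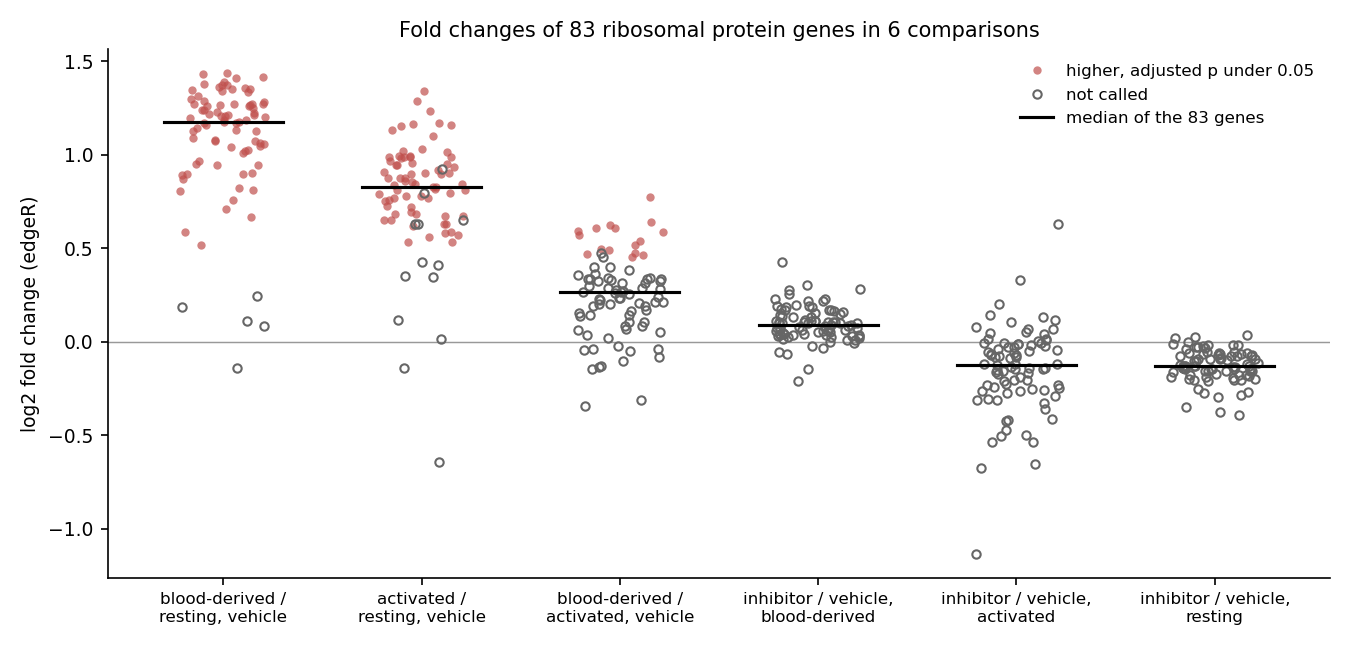
log2 fold change (vertical axis, edgeR) of each of the 83 genes in 6 comparisons; filled points passed an adjusted p of 0.05 as higher, open points did not, and the black line is the median of the 83 genes. The median is 1.17 and 0.83 against resting microglia, 0.26 between the gates, and within 0.13 of 0 for the inhibitor in each population.

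The share of ribosomal protein counts and that of the neutrophil markers moved in opposite directions among the activated libraries. With inhibitor, replicates 1 to 6 held 3.24%, 14.2%, 2.02%, 8.16%, 5.13% and 6.32% of counts in neutrophil markers. Their ribosomal protein shares, in the same order, were 2.05%, 0.935%, 2.41%, 1.06%, 1.66% and 1.08%. With vehicle, the neutrophil shares were 3.07%, 2.60%, 2.62%, 8.22% and 5.39%, beside ribosomal protein shares of 1.60%, 2.30%, 1.80%, 1.11% and 1.54%. In both arms the library with the most neutrophil marker RNA had the least ribosomal protein RNA. Natural killer (NK) cell markers, 8 genes, ran the other way in the inhibitor arm: replicates 1 to 6 held 1.27%, 0.0575%, 1.63%, 0.296%, 1.11% and 0.0368% of counts. The 3 inhibitor libraries with the most NK marker RNA also had the most ribosomal protein RNA. With vehicle the NK shares were 0.0752%, 0.203%, 0.355%, 0.111% and 0.0713%. Summed over 10 T cell markers, the inhibitor libraries held 0.096%, 0.0126%, 0.112%, 0.0543%, 0.0919% and 0.0135%, high in the same 3 libraries, and the vehicle libraries 0.0130% to 0.0452%. All are shares of the same total, and the part of neutrophil, NK cell or T cell RNA in the differences from the other populations was not tested.

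**Figure D3:**
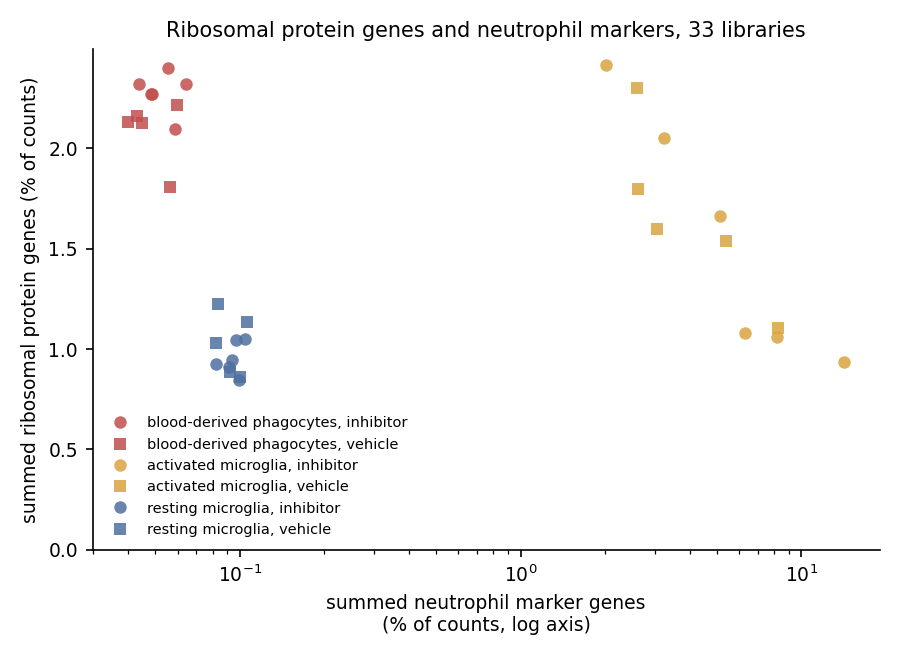
Ribosomal protein share (vertical axis, % of counts) against the summed share of 11 neutrophil marker genes (horizontal log axis, % of counts) in 33 libraries; colours mark populations, circles inhibitor and squares vehicle. Activated libraries run from 2.02% to 14.2% neutrophil markers, and the 4 with more than 6% hold 0.935% to 1.11% ribosomal protein counts.

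Rpl9, a protein of the large subunit, had 355, 279, 355, 340.1 and 323 CPM in blood-derived phagocytes with vehicle. It had 295, 368, 314, 202 and 234 CPM in activated microglia, and 138, 159, 129, 144 and 151 CPM in resting microglia. No library of either gate overlapped resting microglia. The log2 fold change was 1.35 ± 0.10 (SE) for blood-derived phagocytes over resting microglia (edgeR, adjusted p = 3.01e-07) and 1.10 ± 0.14 for activated over resting microglia (adjusted p = 0.00014). With inhibitor Rpl9 had 349, 367 and 383 CPM (lowest, median, highest) in blood-derived phagocytes, 190.5, 254 and 429.7 CPM in activated microglia and 121, 133 and 152 CPM in resting microglia, again without overlap. Rpl24, a large-subunit protein at the face between the subunits, was close to it, with log2 fold changes of 1.35 ± 0.11 in blood-derived phagocytes and 0.99 ± 0.16 in activated microglia over resting microglia with vehicle.

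Rpl10, which joins the large subunit late, in the cytoplasm, differed between the gates. It had 432, 345, 364, 337 and 359 CPM in blood-derived phagocytes with vehicle, against 280.2, 214, 209, 159 and 193 CPM in activated microglia and 164, 171, 174, 146 and 155 CPM in resting microglia. Blood-derived libraries overlapped neither other group with vehicle. With inhibitor the lowest, median and highest were 264, 346 and 383 CPM in blood-derived phagocytes and 145, 208 and 266 CPM in activated microglia, which overlapped, with a log2 fold change of 0.59 ± 0.17 (adjusted p = 0.0258). With vehicle its log2 fold change was 0.77 ± 0.15 over activated microglia (adjusted p = 0.00318) and 1.34 ± 0.10 over resting microglia (adjusted p = 1.93e-07), the smallest p among the 83 genes in each of these comparisons. A row with the symbol Rpl10-ps3 gave 0.71 and 1.46, so the reads of Rpl10 may be divided between these rows.

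On the small subunit, Rps9 had 545, 491, 591, 556 and 617 CPM in blood-derived phagocytes with vehicle. Activated microglia had 514, 602, 582, 446 and 455 CPM, and resting microglia 237, 289, 221, 244 and 313 CPM. Both gates stood clear of resting microglia and overlapped each other. The log2 fold changes over resting microglia were 1.26 ± 0.13 and 1.13 ± 0.14 (adjusted p = 3.1e-06 and 0.000157), and that of blood-derived phagocytes over activated microglia was 0.09 ± 0.11 (adjusted p = 0.67).

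Rps19, the gene most often mutated in human Diamond-Blackfan anaemia, had the largest rise in blood-derived phagocytes over resting microglia with vehicle. It had 470.4, 383, 489, 468 and 481 CPM in blood-derived phagocytes and 149, 215, 152, 211 and 216 CPM in resting microglia. The log2 fold change was 1.44 ± 0.14 with vehicle and 1.73 ± 0.09 with inhibitor, where the lowest, median and highest were 471, 509 and 539 CPM in blood-derived phagocytes against 146, 159 and 191 CPM in resting microglia. Activated microglia with vehicle spread over 333, 622, 432, 238 and 326 CPM, all above resting microglia, with a log2 fold change of 1.15 ± 0.21.

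Rps6, the small-subunit protein phosphorylated by S6 kinase, had 462, 396, 429, 397 and 436 CPM in blood-derived phagocytes, 377, 416, 369, 218 and 291 CPM in activated microglia and 159.6, 232, 167, 193 and 263 CPM in resting microglia with vehicle. It rose by a log2 fold change of 1.22 ± 0.15 in blood-derived phagocytes and 0.84 ± 0.19 in activated microglia over resting microglia, where the activated and resting libraries overlapped. Rpsa, a small-subunit protein also known as a laminin receptor, had 451, 383, 480.0, 450.5 and 452 CPM in blood-derived phagocytes, 334, 370.1, 308, 219 and 324 CPM in activated microglia and 161, 223, 194, 193 and 259 CPM in resting microglia. It was higher in blood-derived phagocytes than in both, by 0.50 ± 0.12 over activated microglia (adjusted p = 0.016) and 1.26 ± 0.14 over resting microglia.

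The stalk of the large subunit, which recruits translation factors, is built from Rplp0 as a base and the acidic proteins Rplp1 and Rplp2. Rplp0 had 802, 674, 753, 777 and 744 CPM in blood-derived phagocytes, 536, 658, 729, 376 and 519 CPM in activated microglia and 277, 372, 294, 299.7 and 396 CPM in resting microglia with vehicle. Only the lowest activated library lay within the resting range. Its log2 fold change over resting microglia was 1.35 ± 0.13 in blood-derived phagocytes and 0.91 ± 0.17 in activated microglia. Rplp2 rose by 1.02 ± 0.15 and 1.01 ± 0.23, and Rplp1 by 0.87 ± 0.15 in blood-derived phagocytes, with 0.63 ± 0.22 in activated microglia at an adjusted p of 0.052.

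**Figure D4:**
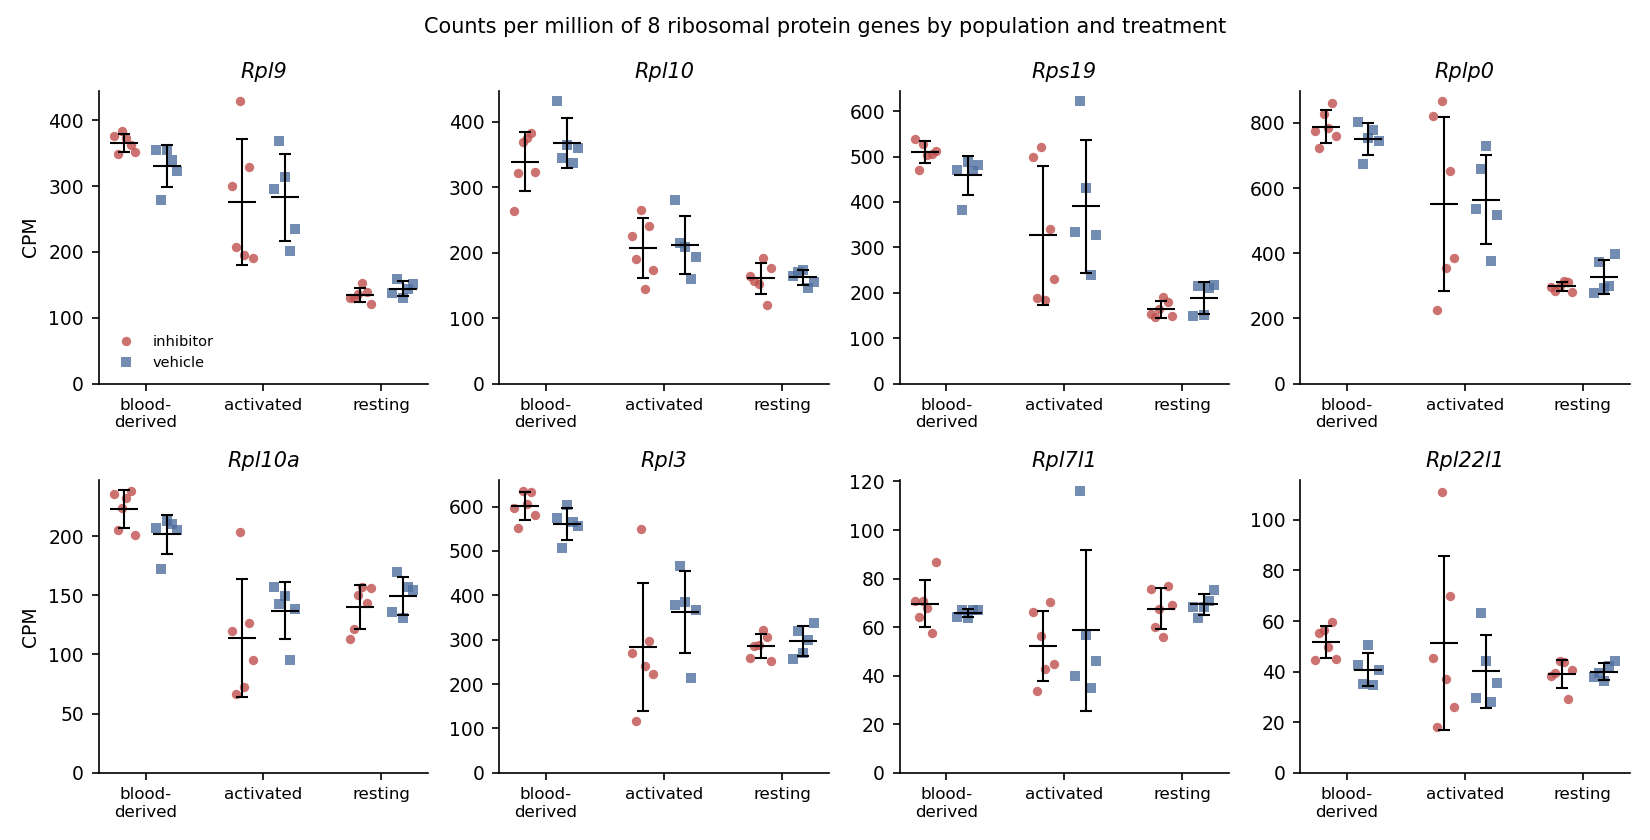
CPM (vertical axes) of 8 ribosomal protein genes by population; points are libraries, red circles inhibitor (n = 6) and blue squares vehicle (n = 5), with black bars for mean ± SD. Rpl9, Rpl10, Rps19 and Rplp0 are higher in blood-derived phagocytes than in resting microglia, while Rpl7l1 stays near 66 to 70 CPM on average in both.

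A second question was whether the genes kept their proportions. The fit was therefore repeated with each library's size set to its summed ribosomal protein counts, so that a log2 fold change of 0 means a gene moved as much as the sum. In blood-derived phagocytes against resting microglia, 3 genes were then higher and 16 lower with vehicle, and 12 higher and 16 lower with inhibitor. On this scale 5.76% of all genes were higher and 81.4% lower with vehicle, and 6.31% and 85.1% with inhibitor. In activated against resting microglia, 0 were higher and 5 lower with vehicle (7.41% and 32.6% of all genes), and 3 higher and 4 lower with inhibitor (9.44% and 29.3%). In blood-derived phagocytes against activated microglia, 0 of the 83 genes were called with vehicle (1.64% and 18.8% of all genes), and Rpl27 alone was lower with inhibitor (1.2% and 27.8%). These counts are read against the sum of the genes themselves, so most of the 83 had to lie near 0.

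Genes called in the same direction in both arms numbered 15 for blood-derived phagocytes and 3 for activated microglia against resting microglia, and Rpl10a and Rpl7l1 were in both sets. Rpl10a, a large-subunit protein of the L1 stalk, had 207, 173, 212, 210.4 and 205 CPM in blood-derived phagocytes with vehicle. Activated microglia had 157, 143, 149.7, 95.6 and 139 CPM and resting microglia 136, 169.6, 130.4, 157 and 154 CPM. Blood-derived libraries stood above all others, while the activated and resting libraries overlapped. Relative to the summed genes it was lower by -0.60 ± 0.11 in blood-derived phagocytes (adjusted p = 0.000179) and -0.80 ± 0.17 in activated microglia (adjusted p = 0.00329), against resting microglia. Under the usual scaling its log2 fold changes were 0.59 ± 0.11 (adjusted p = 0.00034) and 0.01 ± 0.14 (adjusted p = 0.96).

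Rpl3, a large-subunit protein beside the site of peptide bond formation, had 573, 506, 604, 564 and 555 CPM in blood-derived phagocytes, 379, 465, 385, 213 and 368 CPM in activated microglia and 257, 319.7, 270.4, 299 and 338 CPM in resting microglia with vehicle. The activated libraries overlapped resting microglia and the blood-derived libraries did not. It rose by 1.07 ± 0.11 in blood-derived phagocytes over resting microglia and by 0.62 ± 0.15 over activated microglia (adjusted p = 0.013), and was called in neither arm of activated against resting microglia. With inhibitor its log2 fold change in blood-derived phagocytes over activated microglia was 1.03 ± 0.21 (adjusted p = 0.00279). Rpl7a, which was also among the smallest p-values there, had 1.03 ± 0.15 (adjusted p = 0.000366).

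Paralogs with a suffix in their symbol were the other departures. Rpl7l1, a relative of Rpl7 found in human cells on maturing large subunits, had 64.1, 67.3, 63.7, 66.9 and 67.0 CPM in blood-derived phagocytes, 40, 116, 56.9, 34.7 and 45.9 CPM in activated microglia and 68.4, 63.8, 68.3, 70.8 and 75.4 CPM in resting microglia with vehicle. The 3 populations overlapped. Its log2 fold change over resting microglia was 0.08 ± 0.07 in blood-derived phagocytes (adjusted p = 0.33) and -0.14 ± 0.25 in activated microglia (adjusted p = 0.71), and it was called in no comparison of populations under the usual scaling. Its parent Rpl7 had 584, 497, 553, 578 and 589 CPM in blood-derived phagocytes and 488, 468, 410.0, 272 and 384 CPM in activated microglia, against 232, 274, 228, 256 and 301 CPM in resting microglia. Rpl7 rose by 1.27 ± 0.11 and 0.78 ± 0.15, and only the lowest activated library lay in the resting range. Relative to the summed genes, Rpl7l1 was lower by -1.11 ± 0.14 in blood-derived phagocytes (adjusted p = 4.18e-06) and -1.02 ± 0.22 in activated microglia (adjusted p = 0.00397).

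Rpl22l1, the paralog of Rpl22, differed from its parent in the same way. Rpl22l1 had 42.6, 35.1, 50.7, 34.7 and 40.5 CPM in blood-derived phagocytes, 29.4, 63.2, 44.2, 28.1 and 35.4 CPM in activated microglia and 37.8, 39.6, 36.2, 42.1 and 44.2 CPM in resting microglia with vehicle, with all 3 overlapping. Its log2 fold change over resting microglia was 0.19 ± 0.13 and 0.12 ± 0.19, neither past the threshold. With inhibitor, where it ran from 44.4 to 59.5 CPM in blood-derived phagocytes against 29 to 44.2 CPM in resting microglia, it rose by 0.50 ± 0.12 (adjusted p = 0.0019). Rpl22 had 54.8, 39.1, 56.5, 58.3 and 63.1 CPM in blood-derived phagocytes, 50.1, 72.4, 62.5, 32.9 and 45.9 CPM in activated microglia and 27.2, 32.7, 26.4, 28.5 and 32.7 CPM in resting microglia. No library of either gate overlapped resting microglia, and it rose by 1.04 ± 0.14 and 0.96 ± 0.18.

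Other paralogs went with their parents. Rps27l, a relative of Rps27 induced by p53, rose by 0.94 ± 0.12 in blood-derived phagocytes over resting microglia with vehicle, beside 1.21 ± 0.18 for Rps27. Rps27l had 73.8, 53.1, 66.5, 71.8 and 67.9 CPM in blood-derived phagocytes, 35.8, 156, 54.3, 51.6 and 45.9 CPM in activated microglia and 33.3, 44.7, 33.8, 42.7 and 38.2 CPM in resting microglia. In activated over resting microglia its log2 fold change was 0.92 ± 0.33 at an adjusted p of 0.056, with 1 activated library far above the rest. Rps27 had 147, 137, 203, 188 and 212 CPM in blood-derived phagocytes, 128, 323, 214, 134 and 171 CPM in activated microglia and 62.0, 91.6, 71.2, 98.7 and 104 CPM in resting microglia, and no library of either gate reached down to resting microglia. It rose by 1.29 ± 0.23 in activated over resting microglia. Its near copy Rps27rt gave 1.34 ± 0.27, and how reads were split between these copies is unknown.

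Rpl36a and Rpl36al, which encode nearly the same large-subunit protein, both rose. Rpl36a had 56.1, 48.3, 61.6, 69.4 and 75.5 CPM in blood-derived phagocytes and 51.2, 77.7, 61.9, 42.2 and 62.3 CPM in activated microglia, against 29.6, 36.4, 31.9, 36.0 and 46.1 CPM in resting microglia with vehicle. Rpl36al had 92.0, 96.2, 88.3, 103 and 102 CPM, 78.2, 203, 111, 66.8 and 75.7 CPM, and 53.3, 65.6, 42.2, 58.4 and 68.4 CPM in the same groups. Blood-derived libraries did not overlap resting microglia for either gene, and for both genes the lowest activated library did. The log2 fold changes over resting microglia were 0.94 ± 0.15 and 0.84 ± 0.18 for Rpl36a, and 0.90 ± 0.13 and 0.99 ± 0.26 for Rpl36al, blood-derived phagocytes first. Rps4x, the X-linked small-subunit protein, rose by 1.36 ± 0.13 and 0.72 ± 0.17, and by 0.61 ± 0.14 in blood-derived phagocytes over activated microglia (adjusted p = 0.00921).

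Several core proteins of either subunit also rose in both gates, some by less than the set's medians of 1.17 and 0.83 over resting microglia with vehicle. Rps23, a small-subunit protein at the decoding centre, rose by 1.37 ± 0.12 in blood-derived phagocytes and 0.99 ± 0.18 in activated microglia over resting microglia with vehicle, and by 1.58 ± 0.08 and 1.07 ± 0.20 with inhibitor. Rps2, near the messenger entry, rose by 1.33 ± 0.13 and 0.69 ± 0.16 with vehicle, Rps13 by 1.06 ± 0.10 and 0.83 ± 0.12, and Rps7 by 1.35 ± 0.16 and 1.23 ± 0.26. Rpl4, a large-subunit protein that lines the exit tunnel for the new protein, rose by 1.42 ± 0.14 and 0.79 ± 0.18.

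Rpl30 and Rpl26, both of the large subunit, had some of the smallest p-values between the gates with inhibitor. In blood-derived phagocytes over activated microglia with inhibitor they rose by 0.79 ± 0.14 and 0.75 ± 0.15 (adjusted p = 0.00112 and 0.00245). With vehicle the same comparison gave 0.33 ± 0.14 and 0.14 ± 0.20, neither past the threshold, and the difference between arms, which is the same interaction tested below, was not called for either gene.

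**Figure D5:**
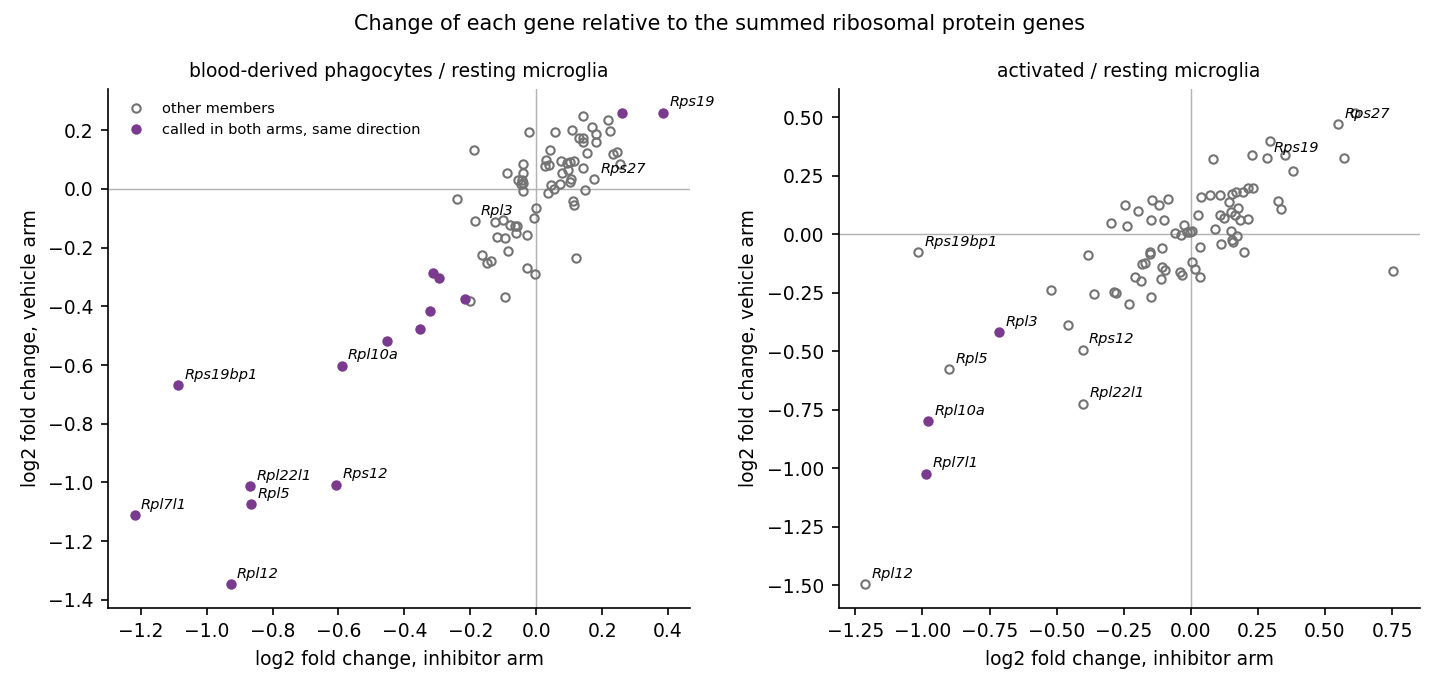
log2 fold change of each gene relative to the summed ribosomal protein genes, inhibitor arm (horizontal axis) against vehicle arm (vertical axis), for blood-derived phagocytes (left) and activated microglia (right) over resting microglia; filled points were called in the same direction in both arms. Rpl7l1 lies at -1.22 and -1.11 on the left and at -0.99 and -1.02 on the right.

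Rpl12, Rpl5 and Rps12, low rows near the 5 CPM limit, were not called over resting microglia with vehicle. Rps19bp1, also low, was called there only in blood-derived phagocytes. Rpl12 had 13.9, 8.18, 13.4, 10.9 and 9.96 CPM in blood-derived phagocytes, 13.9, 7.72, 6.21, 2.12 and 10.4 CPM in activated microglia and 11.5, 14.6, 15.6, 13.2 and 14.3 CPM in resting microglia with vehicle, with log2 fold changes over resting microglia of -0.14 ± 0.17 and -0.65 ± 0.47 that did not pass. Rpl5, which with Rpl11 and an RNA of the large subunit binds Mdm2, had 0.11 ± 0.22 and 0.35 ± 0.58. Rps12 had 0.24 ± 0.21 and 0.35 ± 0.37. Rps19bp1 had 0.51 ± 0.20 (adjusted p = 0.036) and 0.79 ± 0.51 (adjusted p = 0.29). With inhibitor, Rps12 rose by 0.79 ± 0.22 (adjusted p = 0.005) and Rpl12 by 0.43 ± 0.18 (adjusted p = 0.045) in blood-derived phagocytes over resting microglia, and Rpl5 had 0.47 ± 0.23 (adjusted p = 0.088). For Rps12 and Rpl27, rows annotated as copies held more reads: Rps12-ps3 averaged 92.0 CPM in blood-derived phagocytes, 73.7 CPM in activated microglia and 54.1 CPM in resting microglia with vehicle, against 12.6, 13.5 and 12 CPM for Rps12. Rps12-ps3 rose by 0.92 ± 0.13 in blood-derived phagocytes (adjusted p = 6.6e-05) and 0.57 ± 0.18 in activated microglia (adjusted p = 0.032), over resting microglia. Rpl27-ps3 averaged 121 CPM in blood-derived phagocytes, 105 CPM in activated microglia and 59.4 CPM in resting microglia, against 20.2, 17.6 and 12 CPM for Rpl27, and rose by 1.18 ± 0.14 and 0.92 ± 0.22. For Rps12 and Rpl27 the deposited row may therefore hold only part of the gene's reads, and its fold change is uncertain. Rows with -ps symbols for Rpl5 and Rpl12 held almost nothing. On the log2 FPKM scale Rpl5-ps2 averaged 0.164 and Rpl12-ps1 0.0096, against 2.16 for Rpl5 and 3.41 for Rpl12. Copies under other symbols were not searched, so the Rpl5 and Rpl12 rows may also hold only part of their genes' reads.

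Small- and large-subunit genes rose by similar amounts. The ratio of large- to small-subunit counts was 1.44 to 1.47 in blood-derived phagocytes, 1.39 to 1.43 in activated microglia and 1.47 to 1.52 in resting microglia with vehicle. With inhibitor it was 1.41 to 1.46, 1.38 to 1.44 and 1.47 to 1.51. In both arms the ranges of blood-derived phagocytes and of activated microglia lay below that of resting microglia. Medians were similar for genes with and without the pyrimidine start at the annotated first base. For blood-derived phagocytes over resting microglia with vehicle, the median log2 fold change was 1.19 for the 14 genes with it. It was 1.19 for the 49 without. In activated over resting microglia the medians were 0.81 and 0.82. A gene counted as without may carry a tract that its annotated start hides, so these medians cannot show whether the tract matters.

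The remaining question was whether the CSF1R inhibitor moved these genes within a population. No gene of the 83 was called in any of the 3 populations by edgeR, and none by DESeq2 or by limma on log2 FPKM. Of all genes tested, 0.274% were called in blood-derived phagocytes, 0.0% in activated microglia and 0.0% in resting microglia. At an unadjusted p under 0.05, 14 of the 83 genes were higher in blood-derived phagocytes with inhibitor. At that threshold 1 was lower in activated microglia and 2 were lower in resting microglia. The share of all genes at the unadjusted threshold was not counted, so these counts are no result about the 83 genes. The median log2 fold change of inhibitor over vehicle for the 83 genes was 0.09, -0.12 and -0.13 in these populations. Over all genes it was -0.002, 0.014 and -0.005. Of the 83 genes, 75 had a positive sign in blood-derived phagocytes, while 66 were negative in activated microglia and 80 in resting microglia. Most of these genes rose and fell together over the libraries, so the signs are not separate observations and show no inhibitor effect by themselves.

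The genes with the smallest p stayed short of the threshold. In blood-derived phagocytes, Rpl36a had 72.8, 77.9 and 86.0 CPM (lowest, median, highest) with inhibitor, against 56.1, 48.3, 61.6, 69.4 and 75.5 CPM with vehicle. The groups overlapped, and the log2 fold change was 0.28 ± 0.11 (adjusted p = 0.234). Rps13 had 0.19 ± 0.07 (adjusted p = 0.236). In resting microglia, Rps27l had -0.35 ± 0.13 and Rpsa -0.30 ± 0.14 (adjusted p = 0.876 and 0.907). In activated microglia, Rps20 and Rpl36a both had -0.54, with SEs of 0.25 and 0.27 (adjusted p = 0.999). The precision differed: the median SE of the 83 log2 fold changes was 0.08 in blood-derived phagocytes, 0.26 in activated microglia and 0.13 in resting microglia. The median coefficient of variation over libraries was 5.80% with inhibitor and 9.87% with vehicle in blood-derived phagocytes, 43.4% and 28.5% in activated microglia, and 11.9% and 17.1% in resting microglia. A change smaller than that spread was not detectable in activated microglia.

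The difference in inhibitor effect between populations was tested in a fit of 4 groups. No gene of the 83 was called for blood-derived phagocytes minus resting microglia, blood-derived phagocytes minus activated microglia or activated minus resting microglia, where 0.0% of all genes were called in each, and DESeq2 and limma also called none of the 83. At an unadjusted p under 0.05 there were 9, 5 and 0 of the 83 genes, all with a positive difference. Here too the share of all genes at that threshold was not counted, so no result is read from these counts. The median differences were 0.22, 0.21 and -0.03 on the log2 scale.

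The wider translation machinery was read from lists of known genes, whose counts stand beside 30.9% of all genes higher and 31.6% lower in blood-derived phagocytes, and 18.2% higher and 10.7% lower in activated microglia, over resting microglia with vehicle. Fau and Rack1, ribosomal components outside the symbol rule, rose in both gates over resting microglia with vehicle. Fau, which encodes a small-subunit protein, rose by 1.21 ± 0.10 in blood-derived phagocytes and 1.26 ± 0.20 in activated microglia, and Rack1, a scaffold on the small subunit, by 1.23 ± 0.13 and 0.70 ± 0.19. Of 17 other messengers known to carry TOP tracts, a list that holds 5 of the elongation factors below, 17 rose in blood-derived phagocytes and 10 in activated microglia, with 0 falling and medians of 1.25 and 0.57. Tpt1 rose by 1.56 ± 0.11 and 1.33 ± 0.13, and Eif3f by 1.61 ± 0.11 and 0.97 ± 0.15. Of 7 elongation factor genes, 6 rose and 1 fell in blood-derived phagocytes, and 2 rose and 1 fell in activated microglia. Eef2, the translocase, rose by 1.25 ± 0.11 and 0.52 ± 0.16, while the gene that fell, Eef2k, encodes the kinase that inhibits it: -2.32 ± 0.13 and -1.41 ± 0.22. Eef2k was also lower in blood-derived phagocytes than in activated microglia, by -0.94 ± 0.24 (adjusted p = 0.019).

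Of 22 initiation factor genes, 17 rose and 2 fell in blood-derived phagocytes, and 7 rose and 1 fell in activated microglia, with medians of 0.59 and 0.32, beside the same shares of all genes, 30.9% and 31.6%, and 18.2% and 10.7%. Of 41 ribosome assembly genes, 13 rose and 8 fell in blood-derived phagocytes and 1 rose and 0 fell in activated microglia, with medians of 0.08 and -0.10, beside -0.04 and -0.10 over all genes. The share of assembly genes that rose in blood-derived phagocytes was near the 30.9% of all genes. Nop56, a core protein of small nucleolar particles, fell by 0.65 on the log2 scale in blood-derived phagocytes. The 78 mitochondrial ribosomal protein genes rose in 51 and 15 cases and fell in 0, with medians of 0.51 and 0.21, beside 1.17 and 0.83 for the cytosolic set. In activated microglia that count was near the 18.2% of all genes that were higher, so it is no result about these genes.

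Of 19 regulators tested, 9 were higher and 6 lower in blood-derived phagocytes, where 30.9% of all genes were higher and 31.6% lower. In activated microglia 7 were higher and 3 lower, where 18.2% of all genes were higher and 10.7% lower. Myc, a transcription factor that drives ribosome synthesis, averaged 35.7 ± 8.04 CPM in blood-derived phagocytes and 36.0 ± 8.73 CPM in activated microglia, against 120 ± 37.0 CPM in resting microglia with vehicle (SD, n = 5 each). It fell by 1.58 and 1.56 on the log2 scale, with adjusted p-values of 0.00016 and 0.0015. Eif4ebp1, the mTOR target that blocks cap-dependent initiation, averaged 71.8 ± 4.31 and 131 ± 48.4 CPM against 28.8 ± 3.62 CPM, and rose by 1.47 ± 0.11 and 2.30 ± 0.21. Rptor, the partner that links mTOR to its targets, was lower by -2.11 ± 0.16 and -2.34 ± 0.57.

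Over all 33 libraries, the genes outside the set whose log2 CPM followed the mean of the ribosomal protein genes most closely, of 9972 with at least 5 CPM, were Gm2000, Rpl10-ps3, Pabpc1, Rpl27-ps3 and Rack1, with Pearson's r of 0.971, 0.970, 0.969, 0.968 and 0.965. Pabpc1 encodes the poly(A) binding protein and is itself on the TOP list. Rpl10-ps3 and Rpl27-ps3 have symbols of copies of genes in the set, and Rack1 is a ribosomal component. Their r may therefore partly be that of the set with itself. Among the 83 genes, the least like the others were Rpl12 at 0.127, Rps19bp1 at 0.236, Rpl7l1 at 0.302, Rpl5 at 0.399 and Rps12 at 0.410. These values describe 33 libraries that share group differences and depth.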

How the data were processed

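RNA of 33 libraries was measured by sequencing after SMART-Seq v4 amplification and Nextera XT preparation, per the labels' protocols. The submitters' processing notes name bcl2fastq and the build GRCm38; the aligner and counting program are not given in the sources used here. Expected counts, estimated counts that need not be whole, were deposited by the authors: 16.3% of all values and 82.3% of the ribosomal protein values were not whole, so reads may have been shared among copies. They were rounded. The authors also deposited log2 FPKM values with 1 added, with a 75th percentile of 2.936 in each library. Symbols came from GENCODE M21.

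Counts were analysed with edgeR 4.0.16 in R 4.3.3 (filterByExpr, TMM, robust quasi-likelihood F test, Benjamini-Hochberg adjusted p under 0.05 over all genes), each comparison in its own groups. SE is the log2 fold change over the root of F. CPM is per total counts. DESeq2 1.42.0, limma 3.58.1, other scalings, a replicate block and left-out libraries were alternatives. The fits were tested on simulated counts. A first test failed its pass conditions, which were then narrowed to the sign of calls, the false share and the order of recovery in the edgeR fit alone. There edgeR missed many of the genes set to differ in activated against resting microglia, so a gene not called in that comparison may still differ. DESeq2 called more unchanged genes and serves only as an alternative.

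The set of genes, lists and naming rule were chosen with earlier results of these data known. Genes named are, per comparison, up to 4 called in each direction with the smallest p (the 2 with the smallest p where none was called), paralogs with their parents, stalk proteins, Rps6, Rpl3, Rpsa, the extremes in level and the 3 farthest from the median fold change in each direction. Rps12 and Rpl27 against their copies, the printed starts of Rpl38 and Rps18, and the single genes given from the wider lists were chosen after their values were seen. Some genes that the rule names are not reported here.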

Additional observations from a re-analysis of the deposited data

Results flagged for a closer look

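7 of 114 groups of 5 or 6 libraries held a library that Dixon's criterion set apart, where chance alone flags about 1 in 20. In blood-derived phagocytes with vehicle, replicate 2 was the lowest library for the summed ribosomal protein share (1.81% of counts), for Rps19 (383 CPM) and for Rpl10a (173 CPM), and replicate 1 was the highest for Rpl10 (432 CPM). In blood-derived phagocytes with inhibitor, replicate 2 was the lowest for Rps6 (388 CPM). In activated microglia with vehicle, replicate 2, a library with 9829 detected genes, was the highest for Rpl7l1 (116 CPM) and for Rps27l (156 CPM). The reasons were not tested.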

How the results depend on the processing

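The counts of 78 and 80 genes higher in blood-derived phagocytes and 70 and 70 higher in activated microglia, over resting microglia, stayed within 1.5 times under RLE, DESeq2, no low-count filter, limma on log2 FPKM, TMM without the ribosomal protein genes, the replicate block and without the 3 libraries of few detected genes. Counts against the summed genes were 19 and 28, and 5 and 7, mostly lower, a different question. For blood-derived phagocytes over activated microglia the main counts of 16 with vehicle and 33 with inhibitor were less settled: limma gave 33 with vehicle, leaving out the low-detection libraries 38, scaling to the summed genes 0 and 1, and leaving out 1 library 10 to 38 and 20 to 44. The replicate block gave 9 and 19. Same-numbered samples correlated between -0.25 and 0.56, not all above 0.1 in any comparison. With 5 or 6 pairs this cannot show whether same-numbered samples came from the same animals. The main fits used no pairing. The cause of these changes in the counts was not tested, and a count without 1 library also has fewer samples. The inhibitor effects had 0 calls among the 83 genes in every alternative. Of 2500 refits of 142 named values, 118 lost the threshold and 0 changed sign; Rpl36a in activated over resting microglia with inhibitor lost it in most. Rpl5 and Rps19bp1 had the lowest mean CPM of the genes named.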
